A study of Homo sapiens with 24 samples.

Results

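The comparison described here sets 786-M1A cells carrying shPAX8-1, a short hairpin RNA against PAX8, beside 786-M1A cells carrying sgNTC18. Its members were taken from the labels alone and are 8 of the 24 RNA-seq libraries of the series, 4 per construct. 786-M1A is a metastatic derivative of the clear cell renal cell carcinoma (ccRCC) line 786-O, which lacks a functional VHL gene. All 8 libraries were labelled as human cells grown in RPMI with 10% FBS, and the labels give no drug, dose or time for any of them. According to the methods of the study, its hairpins were carried by inducible vectors, but the labels do not say when induction began. sgNTC18 reads as the name of a non-targeting guide, so the control cells carried a different kind of construct from the depleted cells. The sgNTC18 libraries also may come from another experiment than the shPAX8 libraries, so that loss of PAX8, the kind of construct and the experiment cannot be told apart in any difference below. The same holds for library preparation, because the labels name one stranded poly(A) kit for every library while the methods name kits of another maker. The 4 libraries of 786-M1A with a second hairpin, shPAX8-2, and the 8 libraries of OS-LM1 with shPAX8-1 or sgNTC18 were used for comparison. OS-LM1 is a metastatic derivative of the ccRCC line OS-RC2.

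PAX8 is a paired-box transcription factor that specifies the nephric lineage, stays on in the adult renal tubule and is kept by nearly all renal carcinomas, where pathologists use it as a marker of kidney origin. In VHL-deficient cells the oxygen-sensing subunit HIF2A, the product of EPAS1, is not degraded and keeps hypoxia genes on. A hairpin is processed into a guide strand which leads Argonaute to complementary transcripts, and bases 2 to 8 of the guide, the seed, can also pair with other transcripts.

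Both hairpins are given because a contrast between them shares the target but not the seed. In the guide strands below, as listed by the study, the seed is in capitals, and in the target strands the bases that pair with it are in capitals.
shPAX8-1 guide: tGTGAGTCaatgcttagtcggc
shPAX8-1 target: gccgactaagcattGACTCACa
shPAX8-2 guide: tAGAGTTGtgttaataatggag
shPAX8-2 target: ctccattattaacaCAACTCTa
The target of shPAX8-1 matched the coding sequence in exon 7 of 12 of PAX8 at chr2:113241690-113241711 (GRCh38, minus strand) and was found in 10 of the 14 annotated PAX8 transcripts. The target of shPAX8-2 lay in the 3' UTR within exon 12, at chr2:113218122-113218143 on the same strand, and was found in 7 of the 14. The 2 sites are therefore in different parts of the transcript, and neither is present in every annotated isoform.

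The libraries of the comparison held 16421429 to 31140267 expected counts, 17808799 to 31140267 with sgNTC18 and 16421429 to 19928571 with shPAX8-1. The 4 shPAX8-1 libraries fell into 2 pairs. A chi-square of the counts, divided by the number of genes, came to 14.1 for replicates 1 and 2, to 3.73 for replicates 3 and 4, and to values from 44.7 to 77.4 for libraries of different pairs. Among the shPAX8-2 libraries the same pairs were closest, at 3.96 for replicates 1 and 2, 11.7 for replicates 3 and 4 and 14.9 to 19.2 for libraries of different pairs. Among the sgNTC18 libraries it ran from 7.15 to 26.0, so no library was a copy of another. For this reason results are also given with replicates 1 and 2 only and with replicates 3 and 4 only. Of the markers of the line, VIM was between 7731 and 9022 CPM (read counts put on a common scale across libraries) in every library and KRT18 between 95.8 and 229.8, while NDUFA4L2, a hypoxia gene typical of ccRCC, was at or below 0.552 CPM and was not tested. Of 8 markers of renal carcinoma that were tested, 6 were lower and 1 was higher with shPAX8-1. Over all genes tested, 34.5% were lower and 36.1% higher. The 6 lower markers include PAX8, the target of the hairpin, and the higher marker was EPAS1. Summed fibroblast markers were 3.70 to 5.30 CPM with sgNTC18, with 4 of the 6 markers at 0, and 11.8 to 14.5 with shPAX8-1. Summed endothelial markers were 0.708 to 1.35 and 1.44 to 1.85 CPM, and leukocyte markers 1.18 to 2.45 and 3.67 to 6.26. The part of these low values in the results was not tested. In bulk RNA fewer cells of a kind and less RNA per cell cannot be told apart. The labels do not say whether replicates were separate cultures, so p-values measure the spread between these libraries, which may be technical.

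PAX8 fell in every shPAX8-1 library. Its level was 295.8, 397.9, 366.6 and 325.0 CPM with sgNTC18 and 23.6, 22.7, 15.6 and 15.3 CPM with shPAX8-1. The groups did not overlap, and the lowest sgNTC18 library was far above the highest shPAX8-1 library. Over 4 libraries each, the mean and SD were 346.3 ± 44.99 CPM and 19.3 ± 4.45 CPM. In edgeR's quasi-likelihood test the log2 fold change was -4.16 ± 0.16 (SE), with an adjusted p of 3.70e-11. On the transcript-length scale the authors' TPM averaged 156.8 and 7.97. The fold was -3.93 with shPAX8-1 replicates 1 and 2 only and -4.49 with replicates 3 and 4 only, so depletion was deeper in the second pair. For each of 5 genes the study follows, PAX8, MYEOV, CCND1, MYC and EPAS1, the 2-sided exact permutation test over the libraries gave p = 0.0286, the smallest that 4 against 4 allows. Separation of this kind was common. Of the 14452 genes tested, at least 6533 were called at an adjusted p under 0.05, did not overlap and reached an average log2 CPM of 3. PAX8 lies at chr2:113215997-113278921 and is overlapped by an antisense transcript, and the sources used here do not state whether counting used strand.

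MYEOV, a gene next to CCND1 on chromosome 11, fell from 131.1, 152.7, 141.7 and 141.7 CPM to 35.8, 26.1, 25.7 and 24.6 CPM (log2 fold change -2.34 ± 0.13, adjusted p = 1.26e-09). CCND1, which encodes the G1 cyclin D1, fell less. It was at 631.7, 637.5, 651.4 and 606.2 CPM with sgNTC18 and at 480.2, 379.8, 372.3 and 353.3 CPM with shPAX8-1 (log2 fold change -0.67 ± 0.13, adjusted p = 0.000230). All 4 shPAX8-1 libraries lay below the lowest sgNTC18 library.

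MYC and EPAS1 rose. MYC, the proto-oncogene that drives growth and ribosome production, was at 102.6, 122.2, 127.5 and 110.4 CPM with sgNTC18 and at 226.4, 194.9, 253.5 and 251.8 CPM with shPAX8-1 (log2 fold change 1.00 ± 0.10, adjusted p = 5.81e-07). EPAS1 was at 207.2, 192.4, 222.9 and 199.5 CPM with sgNTC18 and at 386.2, 299.6, 307.5 and 290.5 CPM with shPAX8-1 (log2 fold change 0.64 ± 0.13, adjusted p = 0.000367). Neither gene's groups overlapped. The rise of MYC was 0.84 and 1.12 in the 2 pairs of shPAX8-1 libraries, and that of EPAS1 was 0.71 and 0.53.

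**Figure D1:**
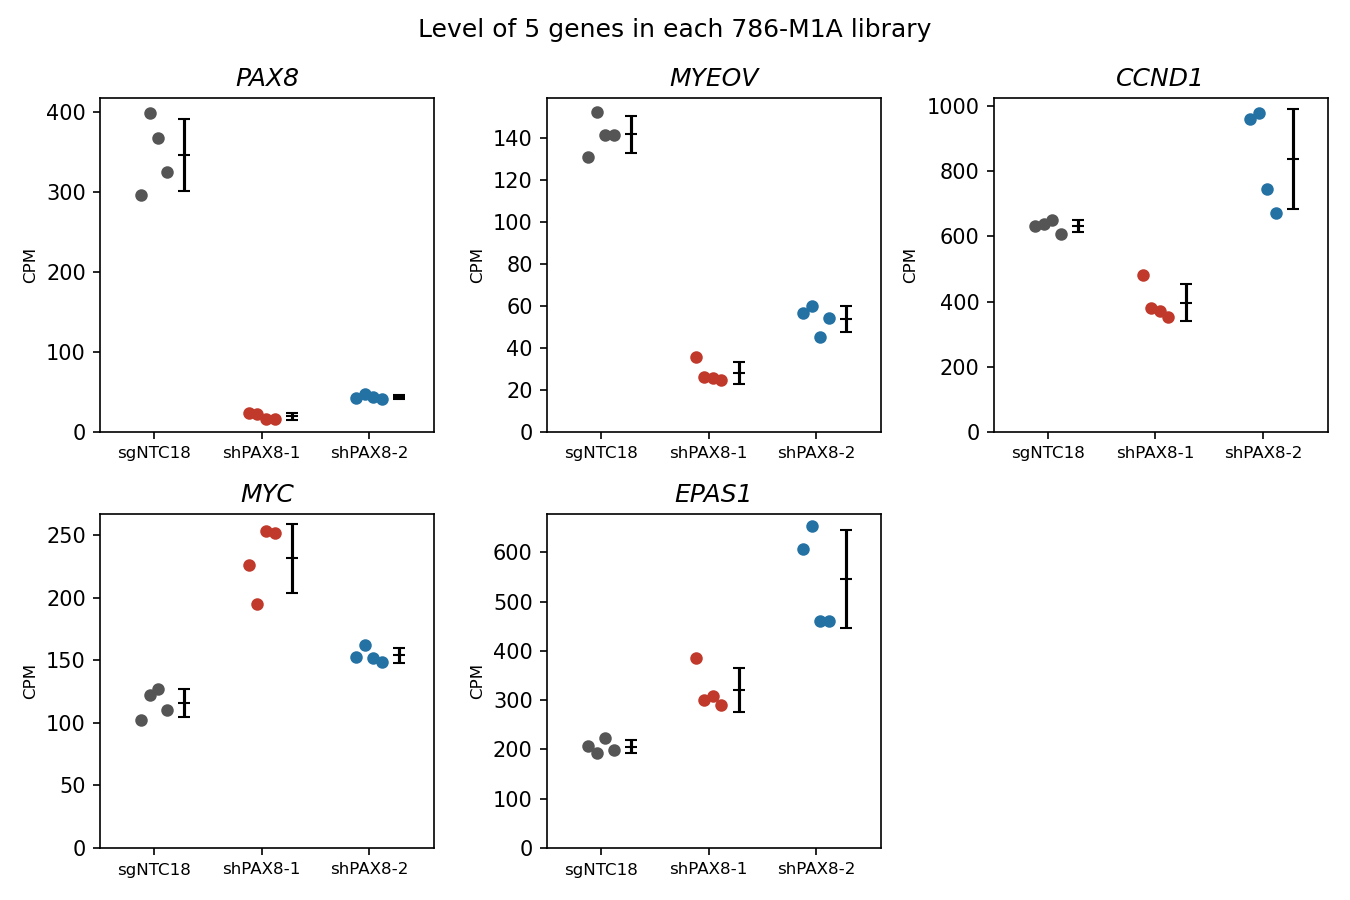
Level of PAX8, MYEOV, CCND1, MYC and EPAS1 in CPM (vertical axis, from 0) in the 4 libraries each of sgNTC18, shPAX8-1 and shPAX8-2 in 786-M1A, with 1 point per library and the mean and SD beside the points. PAX8 averaged 346.3 CPM with sgNTC18 and 19.3 CPM with shPAX8-1, and CCND1 was below sgNTC18 with shPAX8-1 but averaged 839.1 CPM with shPAX8-2.

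The change reached far beyond these genes. Of 14452 genes tested in the fit of the 12 libraries of 786-M1A, 5211 (36.1%) were higher and 4988 (34.5%) were lower with shPAX8-1 at an adjusted p under 0.05. These shares are the background against which every list below has to be read. The log2 fold change was beyond 1 for 2783 genes upward and 2689 downward, beyond 2 for 813 and 789, and beyond 4 for 146 and 69. The median over all genes tested was 0.03, a value that the scaling of the libraries holds near 0.

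Kidney lineage genes moved in both directions. Among 15 tested transcription factors of the renal lineage, 6 were higher and 8 lower, with a median log2 fold change of -0.42. Beside PAX8, the falls included LHX1 (-2.05), a factor of the early nephric duct, and PAX2 (-0.86), the paralogue of PAX8. TFAP2A, a factor of neural crest and ectoderm that is also found in the distal nephron, rose by 1.85 ± 0.21 (adjusted p = 1.43e-06), from 4.42 to 6.21 CPM in the sgNTC18 libraries to 16.6 to 24.5 CPM with shPAX8-1. SIM1 rose by 1.60 ± 0.20 (adjusted p = 3.55e-06). When a trend on GC content was removed from each library the median of this list became 0.16 with 5 genes higher and 5 lower.

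Surface and tubule genes fell more often than they rose, 11 against 4 of 18 tested (median log2 fold change -1.09). CDH6, a kidney cadherin, was at 264.0, 215.4, 244.5 and 243.2 CPM with sgNTC18 and at 28.7, 34.8, 33.4 and 37.5 CPM with shPAX8-1 (log2 fold change -2.85 ± 0.13, adjusted p = 1.62e-10). CA12, a membrane carbonic anhydrase, fell from 989.7 to 1020.0 CPM across the sgNTC18 libraries to 357.5 to 424.5 CPM (-1.36 ± 0.08, adjusted p = 1.96e-09). The groups of both genes were far apart. Larger fold changes were fitted for FXYD2, a regulator of the sodium pump of the tubule (-6.89), and for CLDN2, the claudin of the proximal tubule (-5.92), with ENPP3 at -3.08, CDH16 at -2.65 and HAVCR1, the injury marker KIM-1, at -1.77. VCAM1, a cell adhesion receptor, went the other way (1.95 ± 0.20, adjusted p = 5.09e-07), as did DPP4, a brush border peptidase (0.68 ± 0.12, adjusted p = 0.000156), and the water channel AQP1 (1.57).

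Of 21 junction and keratin genes, 9 were higher and 10 lower. Their median log2 fold change was -0.40, and it was 0.32 with DESeq2 and 0.23 without a filter on low counts. KRT8, a keratin of simple epithelia, fell from 212.4, 268.4, 276.5 and 226.9 CPM to 53.7, 60.8, 36.9 and 33.8 CPM (-2.41 ± 0.17, adjusted p = 1.15e-08), and KRT80 fell by 1.46 on the log2 scale (SE 0.10, adjusted p = 5.51e-09). KRT18, the partner of KRT8, fell by 0.96 on that scale. The tight junction genes CLDN12 and F11R rose by 2.33 ± 0.15 (adjusted p = 3.12e-09) and 1.17 ± 0.08 (adjusted p = 7.47e-09). The hair keratins KRT81 and KRT86 had fitted changes of 6.15 and 6.70, which are uncertain because these near-identical genes share reads.

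Among genes above the expression minimum of the naming rule, an average log2 CPM of 3, the falls of largest size belonged to interferon-stimulated genes, the antiviral programme that type I interferon switches on. Of 58 such genes tested, 55 were lower and none was higher, and the median log2 fold change was -2.83. The 3 that did not pass were GBP2 (-0.27), IFITM2 (0.05) and GBP3 (0.08). All 10 genes with the largest fall by the naming rule were members of this list. With shPAX8-1 replicates 1 and 2 only, 55 genes were lower and 1 higher, and replicates 3 and 4 only gave the same numbers.

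OAS2, a sensor of double-stranded RNA, was at 326.2, 275.8, 283.4 and 253.7 CPM with sgNTC18 and at 0.700, 0.827, 0.989 and 0.629 CPM with shPAX8-1 (log2 fold change -8.49 ± 0.17, adjusted p = 5.52e-14). IFI27 was at 83.9, 110.8, 98.7 and 108.3 CPM against 0.862, 0.729, 0.742 and 0.514 CPM (-7.12 ± 0.18, adjusted p = 4.95e-13). In both genes every shPAX8-1 library was below 1 CPM. MX2, an antiviral GTPase, was at 164.1, 141.5, 146.9 and 130.1 CPM against 2.64, 2.68, 2.66 and 2.91 CPM (-5.74 ± 0.12, adjusted p = 9.59e-14). RSAD2, which encodes viperin, was at 71.6, 48.8, 57.6 and 56.6 CPM against 0.754, 0.827, 0.247 and 0.286 CPM (-6.73 ± 0.30, adjusted p = 1.30e-10).

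The other 6 genes of the set were EPSTI1 (log2 fold change -8.15), CMPK2 (-7.79), IFI44L (-6.92), OAS1 (-6.18), OASL (-5.90) and IFI35 (-5.81). The fold changes of EPSTI1 and CMPK2 rest on shPAX8-1 levels of 0.0486 to 0.215 CPM and are correspondingly imprecise in size. Summed over the list, the level was 10130, 10006, 9584 and 9540 CPM with sgNTC18 and 2982, 2789, 2207 and 2242 CPM with shPAX8-1. The sgNTC18 libraries were thus the high ones, and the shPAX8-1 sums were below even the OS-LM1 sgNTC18 libraries, which averaged 3151 ± 104.5 CPM.

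Antigen presentation genes, many of which respond to interferon, were lower for 16 and higher for 5 of 22 tested (median -1.54). HLA-F was at 73.8, 95.0, 87.3 and 76.4 CPM against 11.9, 9.05, 7.73 and 8.06 CPM (-3.18 ± 0.16, adjusted p = 4.14e-10), and PSMB9, an immunoproteasome subunit, fell from between 56.1 and 58.3 CPM to between 9.94 and 11.2 CPM (-2.45 ± 0.15, adjusted p = 2.07e-09). HLA genes are near-identical in places, so reads may be split between them. The list's rises were PDIA3 (1.42 ± 0.10, adjusted p = 1.10e-08), CANX (1.11), CALR (0.75 ± 0.07, adjusted p = 3.85e-07), ERAP2 (0.52) and MR1 (0.35). PDIA3, CANX and CALR are general chaperones of the endoplasmic reticulum.

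Among 34 NF-kB feedback genes, cytokines and chemokines, 19 were lower and 10 higher (median -0.42). The interferon-responsive chemokines CXCL10 (-5.86) and CCL5 (-3.71) fell, as did TNFAIP2 (-2.38 ± 0.12, adjusted p = 5.65e-10) and NFKBIZ (-1.17 ± 0.09, adjusted p = 4.23e-08). IL1B, the secreted inflammatory cytokine, went from 0, 0.112, 0 and 0.313 CPM to 22.1, 18.1, 23.4 and 22.5 CPM (7.71 ± 0.41, adjusted p = 6.96e-10), and its relative IL1A rose by 3.61. CCL26, an eosinophil chemokine, rose from 2.52 to 4.02 CPM in the sgNTC18 libraries to 28.9 to 35.4 CPM (3.21 ± 0.17, adjusted p = 6.39e-10). Cytokine genes thus moved both ways within 1 list.

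**Figure D2:**
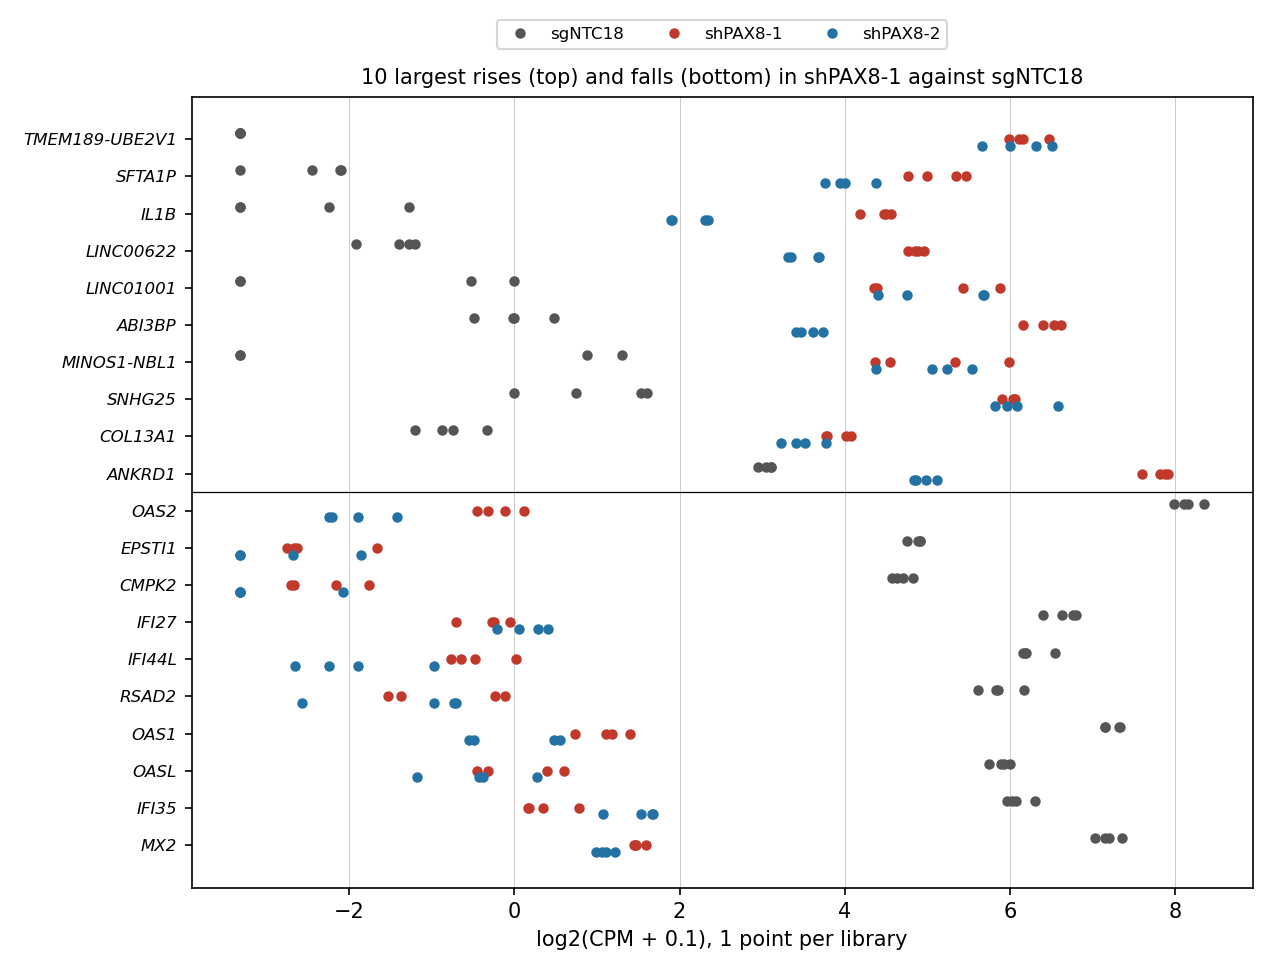
The 10 genes with the largest rise (top) and the 10 with the largest fall (bottom) by the naming rule, with log2(CPM + 0.1) on the horizontal axis and 1 point per library of 786-M1A. For each of the 20 genes the shPAX8-1 and sgNTC18 points do not overlap, as the rule required, and the mean log2 fold change of shPAX8-2 has the same sign.

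The largest rises had no common theme. TMEM189-UBE2V1, a readthrough gene, was at 0 in all 4 sgNTC18 libraries and at 68.8, 88.4, 71.4 and 63.4 CPM with shPAX8-1. Against a floor of 3 counts in the smallest sgNTC18 library it was at least 432-fold higher. It was also at 50.55 to 91.13 CPM with shPAX8-2. In OS-LM1 it was at 0 in all 4 sgNTC18 libraries and at 48.25 to 90.67 CPM with shPAX8-1. Its parent genes overlapped between the groups. TMEM189 was at 103.9 to 142.2 CPM with sgNTC18 and 74.6 to 137.7 CPM with shPAX8-1, and UBE2V1 at 346.1 to 372.6 and 283.2 to 370.1 CPM. MINOS1-NBL1, another readthrough gene, was at 0, 1.73, 0 and 2.37 CPM with sgNTC18 and at 63.3, 40.2, 20.6 and 23.2 CPM with shPAX8-1 (log2 fold change 5.29 ± 0.78, adjusted p = 5.35e-05). Its parent MINOS1 overlapped between the groups, at 31.9 to 39.4 and 23.7 to 47.8 CPM, while its parent NBL1 was lower without overlap, at 117.2 to 162.1 CPM with sgNTC18 and 56.1 to 84.4 CPM with shPAX8-1. Reads of a readthrough gene are shared with its parents and were divided between them by the counting model, so both rises are uncertain.

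Non-coding and pseudogene transcripts were among the rest. SFTA1P rose from at most 0.134 CPM in any sgNTC18 library to at least 27.1 CPM in every shPAX8-1 library (8.47 ± 0.32, adjusted p = 3.39e-11), and LINC00622 from 0.165 to 0.333 CPM to 27.0 to 30.9 CPM (6.74 ± 0.20, adjusted p = 2.62e-12). LINC01001 was at 58.8 and 42.8 CPM in shPAX8-1 replicates 1 and 2 and at 20.8 and 20.3 CPM in replicates 3 and 4, against at most 0.895 CPM with sgNTC18 (6.61 ± 0.67, adjusted p = 8.26e-07). SNHG25, a host of small nucleolar RNA, was at 0.895 to 2.95 CPM with sgNTC18 and 59.5 to 66.4 CPM with shPAX8-1 (4.92 ± 0.27, adjusted p = 8.48e-10). All of these were at or below 2.95 CPM in the control libraries.

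The others named here encode proteins. ABI3BP, an extracellular matrix protein, was at 1.29, 0.615, 0.890 and 0.894 CPM with sgNTC18 and at 71.5, 84.2, 98.3 and 92.2 CPM with shPAX8-1 (6.52 ± 0.19, adjusted p = 2.62e-12). COL13A1, a transmembrane collagen, rose from 0.336 to 0.692 CPM to 13.6 to 16.7 CPM (4.86 ± 0.21, adjusted p = 8.77e-11). ANKRD1, a target of the mechanosensitive coactivator YAP, was at 8.17, 7.61, 8.54 and 8.49 CPM with sgNTC18 and at 193.3, 224.3, 234.5 and 240.1 CPM with shPAX8-1 (4.76 ± 0.12, adjusted p = 3.94e-13). The replicates of ANKRD1 were tight within both groups.

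Most genes of DNA replication fell. Of 43 genes used to mark S phase, 35 were lower, none was higher and 8 did not pass (median -1.41). With shPAX8-1 replicates 3 and 4 only, 33 were lower and 2 higher. RRM2, the regulated subunit of ribonucleotide reductase, was at 512.4, 437.3, 509.1 and 482.0 CPM with sgNTC18 and at 64.8, 81.7, 72.4 and 76.0 CPM with shPAX8-1 (-2.72 ± 0.10, adjusted p = 3.34e-11). CHAF1B, a histone chaperone of the replication fork, fell from at most 47.4 CPM to 7.75 to 10.1 CPM (-2.39 ± 0.11, adjusted p = 2.48e-10). The helicase subunit MCM5 (-3.07) and the methylation reader UHRF1 (-2.88) had the list's largest falls. Summed over the list, the level was 2976 ± 172 CPM with sgNTC18 and 1074 ± 128 CPM with shPAX8-1.

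Most mitotic genes did not fall with them. Of 54 genes that mark G2 and M phase, 18 were higher and 19 lower, shares near the background, with a median of 0.03. TACC3 and CDCA8, which act on the mitotic spindle and in the chromosomal passenger complex, fell by 1.58 (SE 0.12, adjusted p = 1.57e-08) and 1.30 (SE 0.10, adjusted p = 2.96e-08) on the log2 scale. CKS1B and CKS2, the small CDK-binding proteins, rose by 1.92 ± 0.19 (adjusted p = 4.20e-07) and 1.74 ± 0.18 (adjusted p = 4.57e-07), and the spindle checkpoint kinase TTK rose by 2.11. With the GC trend removed, 14 were higher and 25 lower (median -0.16), and without a filter on low counts the median was -0.05. The split also depended on the library pair. With shPAX8-1 replicates 1 and 2 only, 11 were higher and 22 lower (median -0.22), and with replicates 3 and 4 only, 25 were higher and 17 lower (median 0.16). The summed level was 6915, 8289, 9218 and 9238 CPM in the 4 shPAX8-1 libraries, against 7919 to 8504 CPM with sgNTC18, so the groups overlapped.

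Regulators of G1 were lower for 13 and higher for 5 of 21 (median -0.59). E2F1 (-2.15) and E2F2 (-3.18), the activators of the S-phase genes, fell, and so did the CDK inhibitors CDKN2C (-2.49 ± 0.14, adjusted p = 8.07e-10) and CDKN1A (-1.87 ± 0.10, adjusted p = 5.12e-10). CDKN1A was at 668.5, 755.0, 752.1 and 692.6 CPM with sgNTC18 and at 229.4, 186.1, 187.4 and 180.1 CPM with shPAX8-1. E2F5 rose (2.50 ± 0.21, adjusted p = 6.54e-08), and CDKN1C rose from a level of at most 0.168 CPM to 0.729 to 1.31 CPM (3.31 ± 0.43, adjusted p = 5.51e-06). Genes that promote and genes that restrain the cycle were thus both found among the falls.

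**Figure D3:**
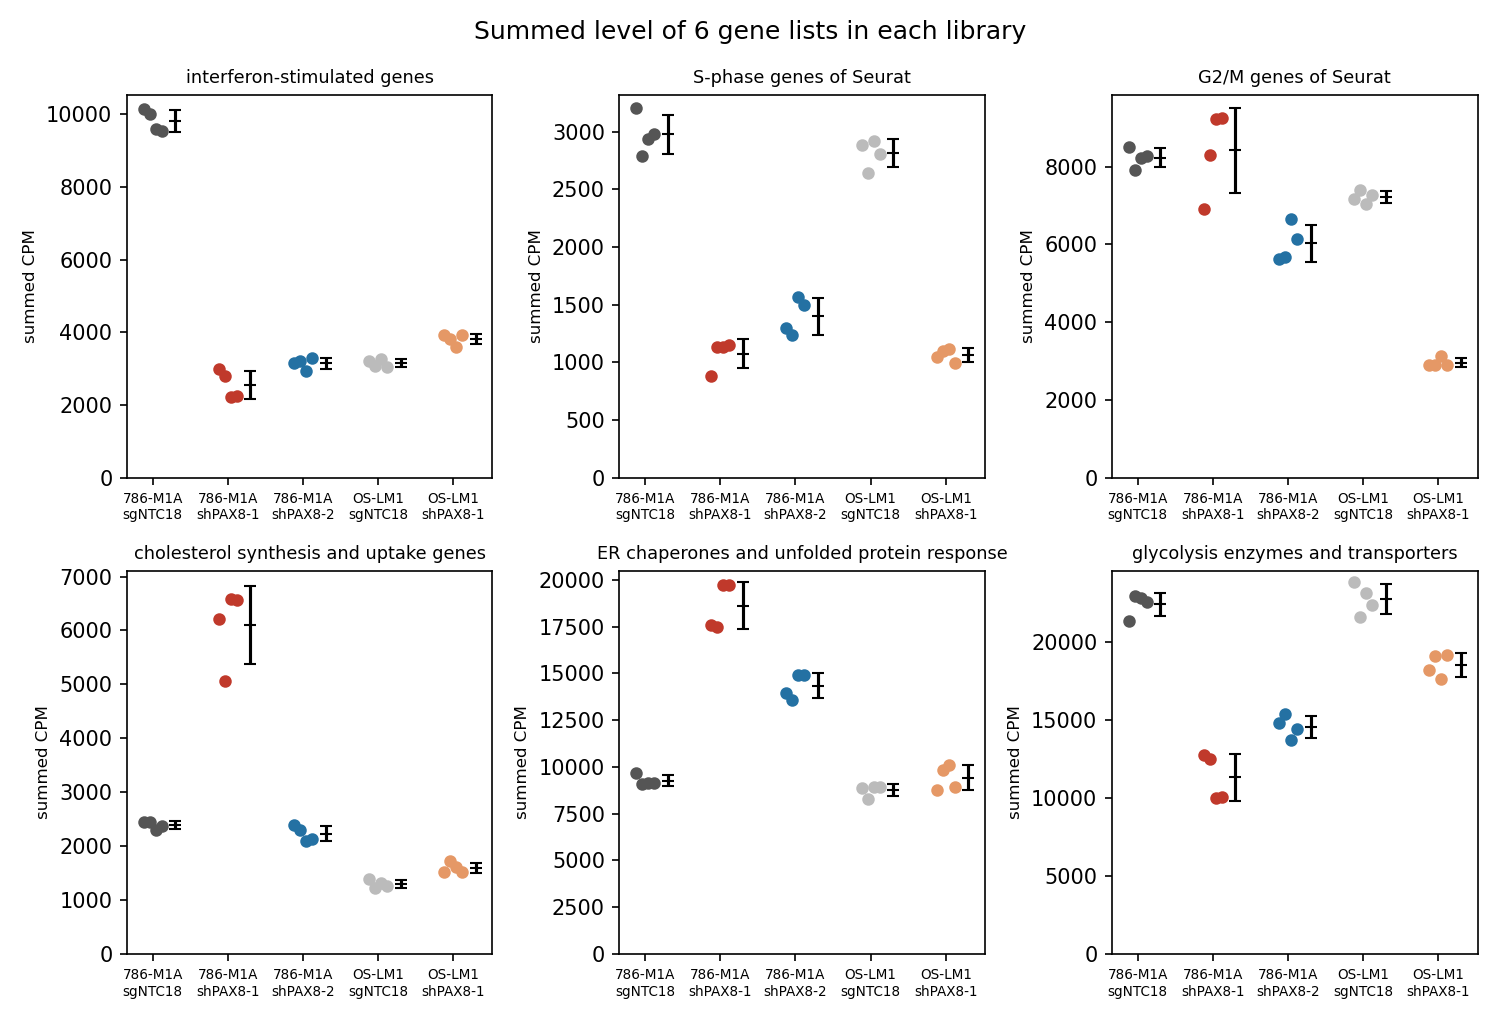
Summed CPM (vertical axis, from 0) of 6 gene lists in each library of 5 groups, with 1 point per library and the mean and SD beside the points. S-phase sums averaged 2976 CPM with sgNTC18 and 1074 CPM with shPAX8-1 in 786-M1A, G2/M sums overlapped, and the cholesterol sums of 5060 to 6575 CPM with shPAX8-1 stand above every other group.

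Cholesterol synthesis and uptake genes were higher for 15 and lower for 6 of 26 tested (median 1.15). SQLE, the squalene epoxidase, was at 99.8, 84.3, 88.6 and 83.7 CPM with sgNTC18 and at 489.1, 436.0, 681.3 and 694.5 CPM with shPAX8-1 (2.69 ± 0.15, adjusted p = 8.07e-10). FDFT1, the squalene synthase, rose from 76.4 to 88.4 CPM to 250.8 to 290.5 CPM (1.76 ± 0.09, adjusted p = 4.28e-10). The sterol-regulated genes HMGCS1 (2.01), INSIG1 (2.29) and MSMO1 (2.95) rose too. The falls were led by SREBF1, the regulator of fatty acid synthesis, from 102.0, 141.6, 121.6 and 114.7 CPM to 42.8, 34.3, 22.9 and 24.4 CPM (-1.95 ± 0.19, adjusted p = 2.77e-07). The summed level was 2290 to 2451 CPM with sgNTC18 and 6203, 5060, 6575 and 6570 CPM with shPAX8-1.

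Chaperones of the endoplasmic reticulum and the unfolded protein response were higher for 20 and lower for 4 of 26 tested (median 1.11). MANF, a secreted chaperone, was at 68.5, 56.4, 57.8 and 65.0 CPM with sgNTC18 and at 394.0, 390.6, 489.6 and 537.5 CPM with shPAX8-1 (2.87 ± 0.13, adjusted p = 1.43e-10). HERPUD1, a component of ER-associated degradation, rose by 2.21 ± 0.11 (adjusted p = 3.58e-10), HSP90B1 by 2.65 and HSPA5, the chaperone BiP, by 1.87. SEC61B, a subunit of the translocon, fell from 211.6 to 217.6 CPM to 73.8 to 90.0 CPM (-1.44 ± 0.12, adjusted p = 5.47e-08), and EDEM1 fell by 0.47 (SE 0.11, adjusted p = 0.00127) on the log2 scale. Among 39 targets of the stress factor ATF4 and aminoacyl-tRNA synthetases, 24 were higher and 8 lower (median 0.46). CEBPB rose by 2.23 ± 0.12 (adjusted p = 6.63e-10) and VLDLR by 1.88 ± 0.09 (adjusted p = 2.46e-10), with SLC7A11 at 2.22, ASNS at 2.09 and DDIT3 at 1.80. ATF5 (-1.52 ± 0.18, adjusted p = 2.92e-06) and SHMT2 (-0.74 ± 0.09, adjusted p = 4.73e-06) fell, and ATF4 itself was at 0.06 and did not pass the test.

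Hypoxia-inducible genes outside glycolysis were higher for 24 and lower for 6 of 37 tested (median 0.70). MXI1, a MYC antagonist induced by HIF, was at 11.9, 11.6, 13.4 and 13.6 CPM with sgNTC18 and at 88.8, 77.3, 98.4 and 96.9 CPM with shPAX8-1 (2.84 ± 0.12, adjusted p = 5.80e-11). VEGFA rose by 0.36 and STC1, the stanniocalcin, by 3.49. TGFA, a growth factor known as a HIF2A target in renal carcinoma, fell from 1069, 873.5, 960.9 and 1003 CPM to 209.5, 194.8, 205.1 and 195.6 CPM (-2.28 ± 0.09, adjusted p = 3.54e-11). ANGPTL4, a lipase inhibitor, fell from 11.6 to 15.2 CPM to 0.927 to 1.40 CPM (-3.53 ± 0.19, adjusted p = 6.58e-10), and the chemokine receptor CXCR4 fell by 1.75 on the log2 scale. Summed over the list, the level was 10199 ± 109.6 CPM with sgNTC18 and 20512, 18169, 15792 and 15217 CPM with shPAX8-1, with no overlap.

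Glycolysis genes went mostly the other way, with 20 lower and 9 higher of 30 (median -0.53). PKM, the pyruvate kinase, fell from 3370, 3846, 3801 and 3466 CPM to 724.6, 732.8, 573.9 and 560.0 CPM (-2.48 ± 0.10, adjusted p = 7.50e-11), and PGAM1 fell by 1.71 on the log2 scale (SE 0.10, adjusted p = 1.89e-09). LDHA and ENO1 both had log2 fold changes of -1.34. HK2, a hexokinase, rose from 36.0 to 41.9 CPM to 159.3 to 234.7 CPM (2.41 ± 0.15, adjusted p = 3.71e-09), and the glucose transporter SLC2A3 rose by 2.16 ± 0.10 (adjusted p = 2.78e-10), while SLC2A1 fell by 0.66 on the log2 scale. The summed level was 22464 ± 741 CPM with sgNTC18 and 11342 ± 1508 CPM with shPAX8-1, with no overlap.

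Mesenchymal and matrix genes were higher for 23 and lower for 6 of 39 tested (median 0.82). Fibroblast marker sums were higher beside them, as given above. Of the 6 fibroblast markers 2 could be tested and both rose, COL1A1 by 0.95 and LUM by 2.56, while DCN, PDGFRA, COL1A2 and COL3A1 were at or below 0.432 CPM in every shPAX8-1 library. Their part in the result was not tested. Summed over the mesenchymal and matrix list, the level was 26197 to 27237 CPM with sgNTC18. With shPAX8-1 it was 32779, 32193, 27585 and 26869 CPM, so the groups overlapped. LOX, a collagen crosslinking enzyme, rose from 13.96, 14.5, 13.2 and 13.1 CPM to 155.6, 134.2, 135.4 and 140.7 CPM (3.37 ± 0.11, adjusted p = 5.52e-12). SPARC, a matrix glycoprotein, rose from 733.6 to 792.6 CPM to 2917 to 3344 CPM (2.04 ± 0.08, adjusted p = 3.70e-11), and the transcription factors ZEB1 (1.75), ZEB2 (2.71) and SNAI2 (2.24) rose with it. FN1, fibronectin, fell from 7244, 6312, 7283 and 6867 CPM to 2739, 2184, 1928 and 1788 CPM (-1.68 ± 0.13, adjusted p = 2.39e-08), COL7A1 fell by 1.69 on the log2 scale (SE 0.22, adjusted p = 5.89e-06) and VIM at -0.12 did not pass the test.

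AP-1 and immediate early genes were higher for 19 and lower for 2 of 30 (median 1.00). CTGF, listed here under its older name, rose by 2.61 ± 0.13 (adjusted p = 2.83e-10), from 35.2 to 41.5 CPM to 195.7 to 284.2 CPM, and CYR61 by 1.81 ± 0.15 (adjusted p = 5.39e-08). The 2 falls were EGR1 (-1.65 ± 0.30, adjusted p = 0.000143) and JUNB (-0.93 ± 0.21, adjusted p = 0.000980), and that of JUNB was lost when the GC trend was removed (-0.13, adjusted p = 0.142). Targets of YAP and TEAD were higher for 16 and lower for 4 of 26 (median 0.63), with ANKRD1, CTGF and F3 at the top. TEAD4 fell by 0.93 (SE 0.14, adjusted p = 2.88e-05) and the YAP paralogue WWTR1 by 0.48 (SE 0.09, adjusted p = 0.000351) on the log2 scale. CTGF, CYR61 and some others are in both lists.

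Coagulation, complement and acute-phase genes were higher for 24 and lower for 7 of 35 (median 1.12). F3, tissue factor, was at 259.0, 252.4, 251.6 and 260.4 CPM with sgNTC18 and at 1096, 1189, 1144 and 1156 CPM with shPAX8-1 (2.16 ± 0.08, adjusted p = 1.83e-11). CLU, the chaperone clusterin, rose from 35.6 to 39.2 CPM to 223.2 to 298.9 CPM (2.78 ± 0.11, adjusted p = 3.77e-11), and complement C3 rose by 2.01. TFPI2, a protease inhibitor, fell from 652.0 to 701.8 CPM to 127.8 to 157.5 CPM (-2.29 ± 0.10, adjusted p = 7.50e-11), as did the clotting factor F8 (-1.41 ± 0.16, adjusted p = 1.62e-06).

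Nucleolar and nucleotide synthesis genes, a set driven by MYC, were lower for 31 and higher for 12 of 51 (median -0.66), although MYC itself rose. SHMT1, of one-carbon metabolism, fell from 60.4 to 67.9 CPM to 13.4 to 13.8 CPM (-2.21 ± 0.10, adjusted p = 1.43e-10), and the ribosome assembly factor RRS1 fell by 2.16 on the log2 scale (SE 0.13, adjusted p = 1.80e-09). MTHFD2, a mitochondrial enzyme of folate metabolism, rose by 1.45 ± 0.10 (adjusted p = 1.09e-08), and NAMPT, of NAD synthesis, rose by 1.79 ± 0.17 (adjusted p = 2.46e-07). p53 targets were lower for 15 and higher for 5 of 29 (median -0.44). DDB2, a DNA damage sensor, fell from 48.3 to 57.6 CPM to 6.29 to 9.09 CPM (-2.81 ± 0.14, adjusted p = 3.75e-10), while CCNG1 (1.10 ± 0.22, adjusted p = 0.000431) and GDF15 (0.70 ± 0.13, adjusted p = 0.000150) rose. CCNG1 was at 73.7 and 88.2 CPM in shPAX8-1 replicates 1 and 2 and at 155.3 and 174.3 CPM in replicates 3 and 4, so its fold was 0.47 or 1.52 by pair.

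Cytosolic ribosomal protein genes were higher for 52 and lower for 12 of 78 (median 0.60). RPL23A (2.17 ± 0.12, adjusted p = 6.71e-10) and RPL32 (1.74 ± 0.11, adjusted p = 4.97e-09) rose, and FAU (-1.48 ± 0.15, adjusted p = 5.41e-07) and RPS9 (-0.94 ± 0.11, adjusted p = 1.36e-06) fell. Ribosomal protein genes have many processed copies in the genome, so that reads may be shared with them. Nuclear subunits of oxidative phosphorylation were mixed, with 25 higher and 34 lower of 76 (median -0.09). ATP5I (1.44 ± 0.10, adjusted p = 1.32e-08) and COX7C (1.54 ± 0.19, adjusted p = 3.29e-06) rose, and NDUFB8 (-1.67 ± 0.13, adjusted p = 3.65e-08) and NDUFC1 (-1.21 ± 0.12, adjusted p = 3.14e-07) fell.

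By the share of genes called, several lists were near the background in both directions. NRF2 targets of the antioxidant response were higher for 11 and lower for 10 of 26 (median -0.02), with FTL, the ferritin light chain, at 1.70 ± 0.11 (adjusted p = 3.39e-09), AKR1C1 at 5.39 ± 0.26 (adjusted p = 2.84e-10), TALDO1 at -1.11 ± 0.09 (adjusted p = 6.56e-08) and SRXN1 at -1.09 ± 0.10 (adjusted p = 2.30e-07). Summed over the NRF2 list, the level was 7915 to 8550 CPM with sgNTC18 and 14024 to 15819 CPM with shPAX8-1, with no overlap. Lipid droplet and fatty acid genes were higher for 14 and lower for 15 of 37 (median 0.03). Their summed level was 4164 to 4313 CPM with sgNTC18 and 5267 to 5828 CPM with shPAX8-1. Within that list SCD, the stearoyl-CoA desaturase, was at 598.4, 475.8, 501.0 and 571.5 CPM with sgNTC18 and 2344, 1760, 2164 and 2101 CPM with shPAX8-1 (1.96 ± 0.11, adjusted p = 1.49e-09), and the lipase inhibitor G0S2 rose by 2.23 ± 0.12 (adjusted p = 9.01e-10). ACLY, the citrate lyase, fell by 1.55 (SE 0.10, adjusted p = 4.83e-09) and MGLL, monoacylglycerol lipase, by 1.98 (SE 0.12, adjusted p = 3.48e-09) on the log2 scale.

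Of 16 genes of the RNA interference machinery, which all hairpins depend on, 6 were higher and 7 lower (median -0.06). AGO3 (2.35 ± 0.13, adjusted p = 1.15e-09) and PRKRA (1.67 ± 0.12, adjusted p = 1.06e-08) rose, while DGCR8, of the microprocessor (-2.11 ± 0.16, adjusted p = 1.83e-08), and the RNA editor ADAR, itself interferon-responsive (-1.31 ± 0.09, adjusted p = 8.14e-09), fell. Replication-dependent histone genes, whose transcripts mostly lack poly(A) tails, were higher for 8 and lower for 4 of 23 (median 0.60), and the median was -0.24 with DESeq2 and -0.31 without the filter. HIST1H2BK (1.72 ± 0.10, adjusted p = 1.79e-09) and HIST1H2BD (2.77 ± 0.18, adjusted p = 4.46e-09) rose, and HIST1H1B fell by 1.90 on the log2 scale (SE 0.39, adjusted p = 0.000469). Metallothioneins, of which 4 of 10 could be tested, were higher for 3 and lower for 1, with MT1X at 1.09 ± 0.14 (adjusted p = 5.60e-06), MT2A at 0.68 ± 0.11 (adjusted p = 5.20e-05) and MT1E at -1.39 ± 0.17 (adjusted p = 2.88e-06). Protocadherins of the beta and gamma clusters were higher for 4 and lower for 3 of 18 (median 0.17). Of these PCDHGA10 rose by 1.24 ± 0.19 (adjusted p = 3.62e-05) and PCDHGC3 fell by 1.26 on the log2 scale (SE 0.14, adjusted p = 1.49e-06), but cluster members share exons and their reads may be split between them.

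**Figure D4:**
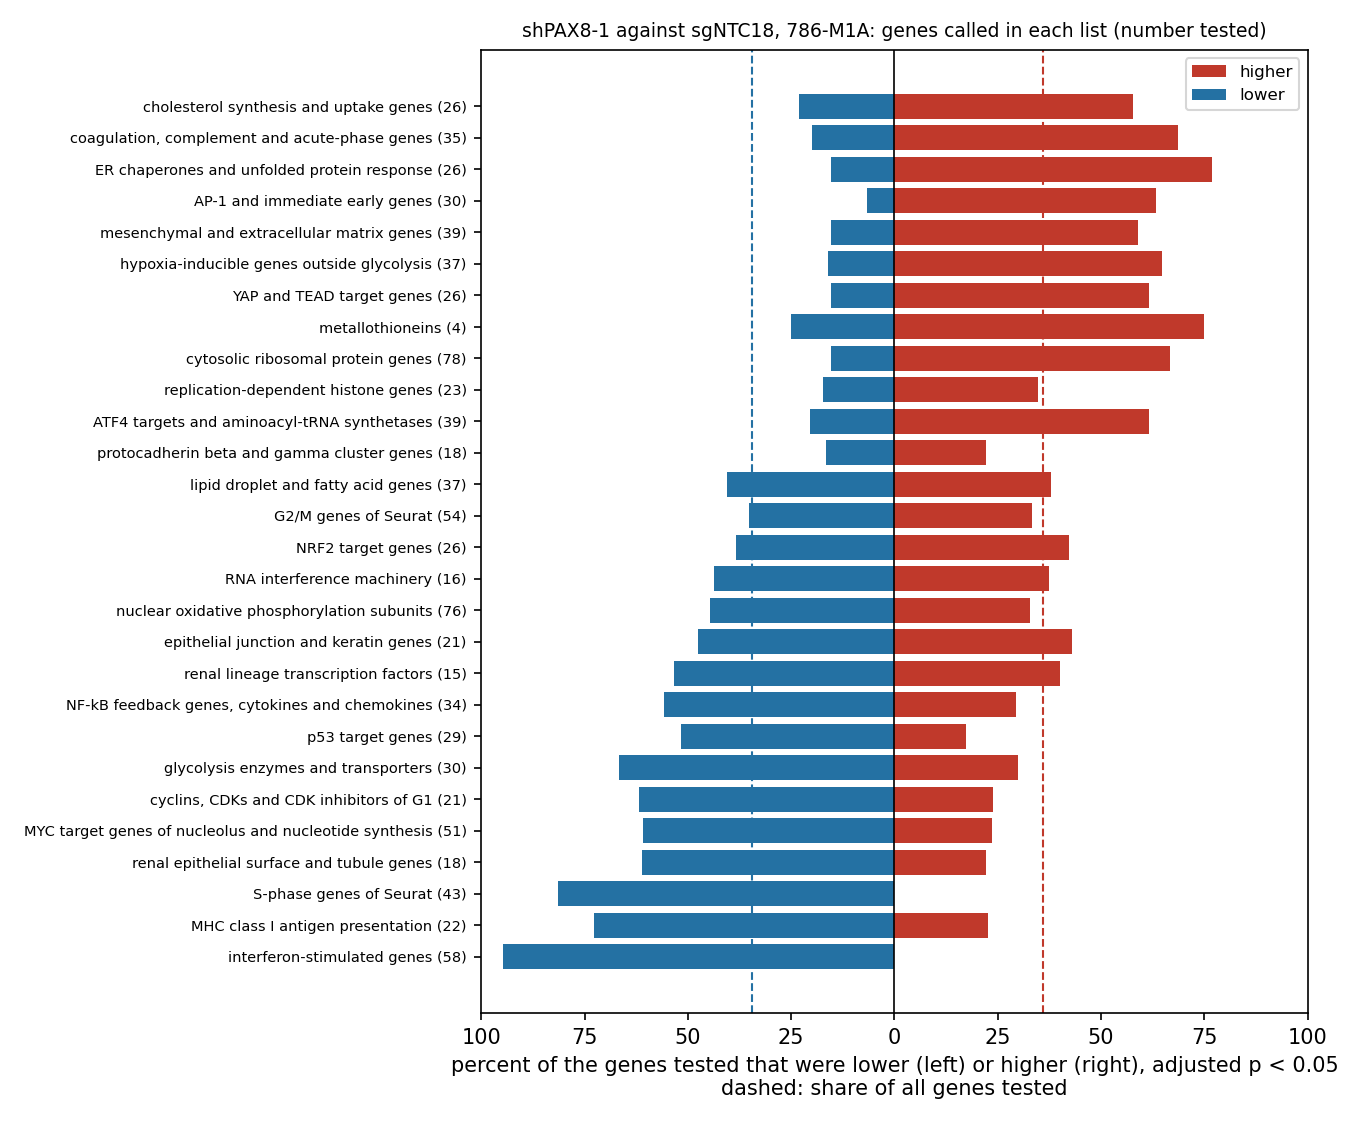
Share of the tested genes of 28 lists that were lower (blue, to the left) or higher (red, to the right) with shPAX8-1 than with sgNTC18, in percent, ordered by the list's median log2 fold change, with the number tested in parentheses and the shares over all genes as dashed lines. Interferon-stimulated genes (94.8% lower) and S-phase genes (81.4% lower) lie beyond the dashed line on the left, and chaperones of the endoplasmic reticulum (76.9% higher) on the right.

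The study defined 2 lists after depletion experiments, and since they were chosen partly on these samples, their direction is no independent evidence. Of its 28 genes listed as lower, 16 were lower and 6 higher here (median -0.58). SYT13, a synaptotagmin, fell from 242.4 to 265.3 CPM to 72.8 to 93.8 CPM (-1.61 ± 0.10, adjusted p = 3.21e-09) and MMP7, matrilysin, by 2.68 on the log2 scale, while GFRA1 (2.11 ± 0.09, adjusted p = 7.50e-11) and SEMA7A (1.46 ± 0.12, adjusted p = 7.16e-08) rose. Of its 49 genes listed as higher, 25 were higher and 16 lower (median 0.35). GFPT2 (2.61 ± 0.10, adjusted p = 3.19e-11) and CPA4 (4.12 ± 0.17, adjusted p = 6.77e-11) rose, and the interferon-responsive members MX2 (-5.74) and SAMD9L (-4.20 ± 0.20, adjusted p = 2.28e-10) fell.

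The second hairpin allows a comparison without the sgNTC18 libraries. Of the 14452 genes, 3500 (24.2%) were higher and 3303 (22.9%) lower with shPAX8-1 than with shPAX8-2, together 6803, and the number was 3869 with shPAX8-1 replicates 1 and 2 only. PAX8 was lower with shPAX8-1 than with shPAX8-2, where it averaged 43.7 CPM (log2 difference -1.18 ± 0.15, adjusted p = 4.01e-05).

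The followed genes did not move alike under both hairpins. Against the shared sgNTC18 libraries the log2 fold change of CCND1 was -0.67 with shPAX8-1 and 0.41 with shPAX8-2, and the hairpins differed by -1.08 (adjusted p = 2.48e-05). MYC was at 1.00 and 0.41 (difference 0.59, adjusted p = 0.000505). EPAS1 was at 0.64 and 1.41 (difference -0.77, adjusted p = 0.000367), and MYEOV at -2.34 and -1.40 (difference -0.94, adjusted p = 8.19e-05). The direction was shared for MYC, EPAS1 and MYEOV and opposite for CCND1.

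Beyond these genes, the 5 with the largest excess in shPAX8-1 over shPAX8-2 by the naming rule were KRTAP2-3, CXCL8, ABI3BP, ANKRD1 and IDI1. The rule kept only genes that were also called against sgNTC18, without overlap and in the same direction. KRTAP2-3, a keratin-associated protein, was at 47.9, 35.9, 43.5 and 45.4 CPM with shPAX8-1 and averaged 2.85 CPM with shPAX8-2 (log2 difference 3.91, adjusted p = 6.00e-08). CXCL8, interleukin 8, was at 31.0, 38.2, 64.5 and 66.9 CPM and averaged 6.31 CPM with shPAX8-2 (2.99, adjusted p = 8.01e-07). ABI3BP and ANKRD1 differed by 2.89 (adjusted p = 5.07e-08) and 2.85 (adjusted p = 7.20e-10). IDI1, the isopentenyl diphosphate isomerase, was at 175.8, 168.4, 345.1 and 361.6 CPM and averaged 43.8 CPM with shPAX8-2 (2.58, adjusted p = 2.54e-06), so its excess was 1.98 or 3.01 by pair of shPAX8-1 libraries.

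The 5 with the largest deficit were MMP24 (-2.59, adjusted p = 8.50e-08), PSKH1 (-2.53, adjusted p = 7.96e-07), RAB36 (-2.41, adjusted p = 3.09e-07), KIF12 (-2.27, adjusted p = 2.90e-05) and XXYLT1 (-2.24, adjusted p = 1.78e-06). RAB36, a Rab GTPase, was at 39.1 to 40.8 CPM with sgNTC18, averaged 18.4 CPM with shPAX8-2 and was at 3.72, 4.62, 2.29 and 3.09 CPM with shPAX8-1. MMP24, a membrane metalloproteinase, averaged 22.3 CPM with shPAX8-2 and was at 2.86 to 4.85 CPM with shPAX8-1. Their levels with shPAX8-2 lay between the other groups or near sgNTC18.

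The lists divided into those that differed between the hairpins and those that did not. Cholesterol genes were higher with shPAX8-1 for 20 and lower for 1 of 26 (median 1.33), and their sum was 2228 ± 142 CPM with shPAX8-2, close to sgNTC18 at 2389 ± 74.3 CPM. HMGCS1 was at 2.01 with shPAX8-1 and -0.08 with shPAX8-2 against sgNTC18. Endoplasmic reticulum chaperones were higher for 17 and lower for 2 of 26 (median 0.52), ATF4 targets for 22 and 1 of 39 (median 0.42), and G2/M genes for 35 and 2 of 54 (median 0.56). S-phase genes were lower for 23 and higher for 2 of 43 (median -0.47), with sums of 1400 ± 160 CPM with shPAX8-2. Interferon-stimulated genes were higher for 14 and lower for 15 of 58 (median 0.08), shares near the background, and their sum with shPAX8-2 was 3152 ± 151 CPM.

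In OS-LM1 the same pair of constructs gave 5330 genes higher (34.0%) and 5160 lower (32.9%) of 15665 tested in the fit of all 24 libraries. The difference of the responses, 786-M1A minus OS-LM1, was positive for 4242 genes (27.1%) and negative for 4425 (28.2%). Of the genes tested in both lines, 2859 were higher in both, which is 54.9% of the rises in 786-M1A and 59.0% of those in OS-LM1, and 2903 were lower in both (58.2% and 59.3%). A further 765 genes that rose in 786-M1A fell in OS-LM1, and 736 that fell in 786-M1A rose there. Both comparisons rest on an sgNTC18 control, so each may include a difference of construct or experiment. Whether such a difference has equal size in 786-M1A and OS-LM1 was not tested. Any unequal part of it stays in the difference of the responses.

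PAX8 fell less in OS-LM1, by 1.73 on the log2 scale, and the responses differed by -2.45 between the lines. MYC (0.75), CCND1 (-0.96) and EPAS1 (0.53) had log2 fold changes in OS-LM1 of the same sign as in 786-M1A, and for MYC (difference 0.23, adjusted p = 0.258) and CCND1 (difference 0.27, adjusted p = 0.194) the difference between lines did not pass the test. MYEOV fell more in OS-LM1 (-2.99, difference 0.64, adjusted p = 0.00299). CDH6 had nearly equal values, -2.85 and -2.79.

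The interferon-stimulated genes set the lines apart. In OS-LM1, 23 of the 58 were higher and 17 lower (median 0.14), and the response differed between the lines for 56 of them, always toward a lower value in 786-M1A. OAS2 had a log2 fold change of 0.10 in OS-LM1 (adjusted p = 0.386) and IFI27 of 0.23 (adjusted p = 0.124). Their sum went from 3151 ± 104.5 to 3812 ± 148 CPM in OS-LM1, and from 9815 ± 297 to 2555 ± 390 CPM in 786-M1A. The 786-M1A sgNTC18 libraries were thus above every library of the other 4 groups. S-phase genes fell in both lines, with 41 of 43 lower in OS-LM1 (median -1.55), while of the G2/M genes 50 of 54 were lower in OS-LM1 (median -1.60) and the response differed upward in 786-M1A for 47 of them. ANKRD1 rose in 786-M1A and fell in OS-LM1 (-1.11), and the responses differed by 5.85.

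Fold changes followed the base composition of genes. The rank correlation of the log2 fold change with the GC content of the gene was -0.36 across 14143 genes for shPAX8-1 against sgNTC18, -0.55 for shPAX8-1 against shPAX8-2 and -0.10 for shPAX8-2 against sgNTC18. These values are across genes, which are not independent replicates, and they share libraries. When genes were ordered by GC content and divided into 10 bins, the median log2 fold change was 0.60 in the bin from 29.2% to 38.3% GC and -0.72 in the bin from 61.1% to 74.8%. With the trend removed from each library, 5584 genes were higher and 5316 lower, PAX8 was at -3.63 and the interferon list had 56 genes lower and 1 higher (median -3.23). The rank correlation with transcript length was 0.14. The part of GC content in the results was not tested.

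**Figure D5:**
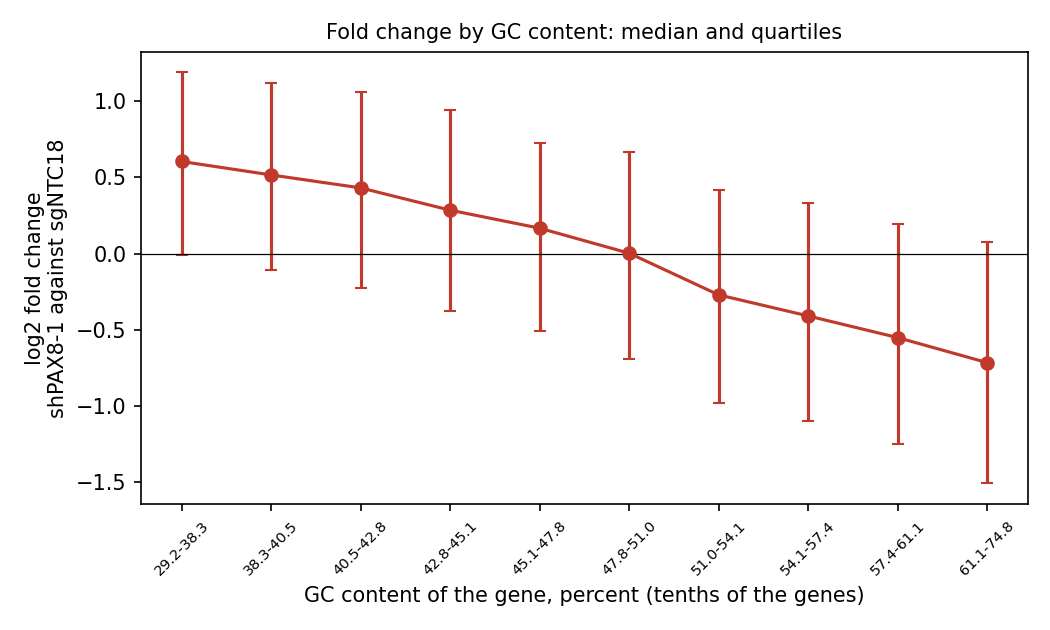
Median log2 fold change of shPAX8-1 against sgNTC18 in 786-M1A (vertical axis) for 10 bins of genes ordered by GC content in percent (horizontal axis), with bars from the lower to the upper quartile of the genes in each bin. The medians fall from 0.60 in the bin of lowest GC content to -0.72 in the highest.

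Transcripts that could pair with the seed of a hairpin were compared with the rest. Of 12764 genes with an annotated 3' UTR, 350 (2.74%) held the match of the shPAX8-1 seed, GACTCAC, followed by A, and their median log2 fold change against sgNTC18 was -0.06. A further 694 (5.44%) held the 7 bases alone (median -0.04), and the 11720 without a match had a median of 0.04. For shPAX8-1 against shPAX8-2 the medians of the same 3 groups were -0.15, -0.17 and 0.02, and for shPAX8-2 against sgNTC18 they were 0.11, 0.09 and -0.01, so the matched groups were lower than the rest in the first contrast and higher in the second. The match of the shPAX8-2 seed, CAACTCT, was grouped in the same way. Its 3 medians were 0.057, 0.051 and -0.007 for shPAX8-2 against sgNTC18. For shPAX8-1 against sgNTC18 they were 0.211, 0.185 and 0.009, and for shPAX8-1 against shPAX8-2 0.19, 0.112 and -0.015. These contrasts share libraries. The 3' UTRs with a match of the shPAX8-1 seed were longer, with medians of 3177 and 3204 bases against 1414 bases. The groups therefore differ in more than the match. A match is a description of the sequence and not a site of action.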

How the data were processed

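Total RNA of cultured cells was sequenced as poly(A) libraries. Per the methods and labels, the authors aligned reads to hg38 with Bowtie2 and RSEM (versions not given in the sources used here) and deposited, per gene, an expected count, a TPM value and transcript lengths (bases, deposited as RSEM computed them). The authors' TPM, the deposited expected count and these lengths are the values used. Expected counts were rounded to whole numbers and tested with edgeR 4.0.16 in R 4.3.3 (filterByExpr, TMM, quasi-likelihood test, Benjamini-Hochberg over all genes, adjusted p under 0.05), with the 12 libraries of 786-M1A in 1 fit and all 24 for the comparison of lines. CPM of tested genes are TMM-scaled, while those of untested genes, the parents of readthrough genes and summed lists are scaled by the library total only. DESeq2 1.42.0, no filter, other scalings, GC and length trends, thinning, leave-outs and a replicate block were alternatives. The GC content of 96.1% of genes came from GENCODE v44 transcripts, and guide sites were matched to it. Guide sequences came from the study's tables.

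Named genes were 5 genes the study follows, the 10 largest rises and falls among called genes whose libraries did not overlap and whose average level reached 3 on the log2 CPM scale (5 each way between hairpins), and in each list the 2 genes each way with the smallest adjusted p. Genes named between hairpins also had to be called against sgNTC18, without overlap and in the same direction. Other list members, and subsets of them, were named after their values were seen. The lists, the rule and the members were chosen with earlier results of these data known. Replicate numbers were not taken as pairs, since not every correlation of deviations between same-numbered libraries was over 0.1 (-0.60, 0.48, -0.25 and 0.20 for shPAX8-1 with sgNTC18; 0.40, 0.29, 0.56 and 0.09 for shPAX8-1 with shPAX8-2). Some results that the rule names are not reported here. The fits were checked on simulated counts. The floor of 3 counts covers counting error only. Standard errors are the absolute log2 fold change divided by the square root of edgeR's F statistic, which reflects the spread between libraries.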

Additional observations from a re-analysis of the deposited data

Results flagged for a closer look

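Among 66 groups of 4 libraries checked for 33 genes named by size or followed by the study, 6 had a library far from the other 3, where chance would give 3.3. These were MYEOV at 35.8 CPM in shPAX8-1 replicate 1, SNHG25 at 59.5 CPM in shPAX8-1 replicate 3, EPSTI1 at 0.215 CPM in shPAX8-1 replicate 1 and at 26.9 CPM in sgNTC18 replicate 2, IFI44L at 93.4 CPM in sgNTC18 replicate 1, and MX2 at 2.91 CPM in shPAX8-1 replicate 4. None of these libraries overlapped the other construct, which the naming rule required of all these genes except MYEOV.

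For 27 of the 33 genes the log2 fold change of shPAX8-1 against sgNTC18 differed between the lines in edgeR's interaction test. Most of the 33 were chosen for large changes in 786-M1A, so the choice itself favours such a difference. Over all 15665 genes tested, the difference was positive for 27.1% and negative for 28.2%. The difference, 786-M1A minus OS-LM1, was -2.45 for PAX8 and 0.64 for MYEOV. Among the rises it was 5.90 for SFTA1P, 4.12 for LINC00622, 6.98 for LINC01001, 3.79 for ABI3BP, 6.39 for MINOS1-NBL1, 2.09 for SNHG25, 3.39 for COL13A1 and 5.85 for ANKRD1. Among the interferon-stimulated falls it was -8.62 for OAS2, -10.36 for EPSTI1, -6.03 for CMPK2, -7.37 for IFI27, -6.04 for IFI44L, -4.81 for RSAD2, -5.77 for OAS1, -6.44 for OASL, -4.95 for IFI35 and -6.03 for MX2. Among the genes that differed between hairpins it was 5.72 for KRTAP2-3, -2.63 for CXCL8, 1.19 for IDI1, -1.03 for MMP24, -2.72 for PSKH1, -3.87 for RAB36 and -2.17 for XXYLT1.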

How the results depend on the processing

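PAX8 stayed between -4.49 and -3.63 on the log2 scale in all 19 alternatives, and the counts against sgNTC18 stayed within 1.5 times the reported ones. DESeq2 gave 5609 genes higher and 5203 lower, and no filter 5296 and 5539. Leaving out 1 library at a time gave 4919 to 5320 and 4777 to 5153. shPAX8-1 replicates 1 and 2 only gave 4810 and 5078, and replicates 3 and 4 only 5434 and 5352. The 6803 genes that differed between hairpins became 3869 with shPAX8-1 replicates 1 and 2 only, 4329 at an adjusted p under 0.01 and 4335 with an absolute log2 difference over 0.58; the cause was not tested in the first, and the others are stricter by construction. With the replicate block, which the data did not bear out as a pairing, the counts were 5196 higher and 5087 lower, 6998 between hairpins and 8571 between lines, and not every shPAX8-1 library correlated best with its own number. Among the genes named here JUNB against sgNTC18 lost its call with the GC trend removed. No gene chosen by the naming rule changed direction in the alternatives run, and the replicate block alone changed no call of such a gene; other list members were not followed across alternatives. The medians of the lineage factor, junction, histone and G2/M lists changed sign as given above. That of the NRF2 list (-0.02) was 0.15 with DESeq2 and 0.06 with the GC trend removed, that of the lipid list (0.03) was -0.09 with shPAX8-1 replicates 3 and 4 only, and that of oxidative phosphorylation (-0.09) was 0.07 with the length trend removed. The comparison of lines was not fitted with the transcript length trend removed. Thinning every library to the smallest, of 11634419 counts, gave 4938 and 4791.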
